A study of Mus musculus with 12 samples.

Results

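The 9 genes described here encode proteins that build iron-sulfur clusters, the small iron and sulfur cofactors of many enzymes. They are *Ciapin1*, which was chosen by its higher read counts in IDH2 KO than in WT livers in earlier tests of these same libraries, and 8 partners in cluster assembly that were taken for their place in the pathway, *Nfs1*, *Lyrm4*, *Iscu*, *Glrx5*, *Isca1*, *Isca2*, *Bola3* and *Ndor1*. Each was found by its name in a table of 36228 gene rows. Of the 9 genes, 8 held at least 1 read and 6 held enough reads for a test.

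Liver RNA was sequenced from IDH2 KO mice, which are germ-line knockouts of *Idh2* (Idh2-/-), and from their WT littermates. *Idh2* encodes the mitochondrial isocitrate dehydrogenase that makes NADPH. The IDH2 KO group held 3 females and 2 males and the WT group 4 females and 3 males, each mouse giving 1 library. All mice were C57BL/6N and were killed at 8 to 10 weeks of age.

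Iron-sulfur clusters are first put together in the mitochondrion, where a cysteine desulfurase takes sulfur from cysteine and a scaffold protein joins it to iron. Other proteins then carry the cluster to enzymes such as lipoic acid synthase and to subunits of the respiratory chain. A sulfur-containing product of this step leaves the mitochondrion, and a separate cytosolic machinery, fed with electrons by CIAPIN1 and NDOR1, builds clusters for cytosolic and nuclear proteins such as DNA polymerases. The liver depends on these cofactors for respiration, for the breakdown of purines and for iron sensing by the cytosolic aconitase.

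The counted reads numbered 15323300 to 25019649 in IDH2 KO libraries and 17055853 to 24084696 in WT libraries. Transcripts of the mitochondrial genome took 29.8% to 50.4% of the reads in IDH2 KO libraries and 22.8% to 49.8% in WT libraries. *Idh2* held 1 to 7 reads in each IDH2 KO library and 967 to 2363 in each WT library, as the labels say. The hepatocyte markers *Alb*, *Apoa1* and *Ttr* were abundant in all libraries, while the hepatocyte marker *Cps1* held 0 reads. IDH2 KO female 3 stood apart from the other libraries, with reads in 8531 genes against 10482 to 12873 in the other 11, and results that moved most without it are given both ways. Levels are given in CPM, the reads of a gene over the reads of its library, multiplied by 1e6 and adjusted by TMM scaling, and every adjusted p is that of the quasi-likelihood test of edgeR with Benjamini-Hochberg adjustment over all genes tested.

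*Ciapin1* encodes anamorsin, an electron carrier of the cytosolic machinery that is also known as a factor against cell death in blood cell precursors. Its level was 23.3, 19.6 and 27.1 CPM in the 3 IDH2 KO females and 20.2 and 22.8 CPM in the 2 IDH2 KO males. In WT mice it was 12.7, 9.24, 8.17 and 11.3 CPM in the 4 females and 13.8, 8.22 and 8.20 CPM in the 3 males. Each of the 5 IDH2 KO libraries lay above each of the 7 WT libraries, and the lowest IDH2 KO value was 1.41 times the highest WT value. The group means were 22.6 ± 2.97 CPM (SD, n = 5) in IDH2 KO livers and 10.2 ± 2.37 CPM (SD, n = 7) in WT livers, a log2 fold change of 1.14 (standard error 0.21) or a ratio of 2.20. Because this difference chose the gene, it is a description and carries no test. Over all 7618 genes tested, 0.171% were called higher in IDH2 KO livers at an adjusted p under 0.05, 0.210% were called lower, 0.223% had every IDH2 KO library above every WT library and 0.446% every one below. Nothing is read from these shares for *Ciapin1*. RNA was taken from whole liver, in which more cells of a type and more RNA per cell cannot be told apart.

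**Figure D1:**
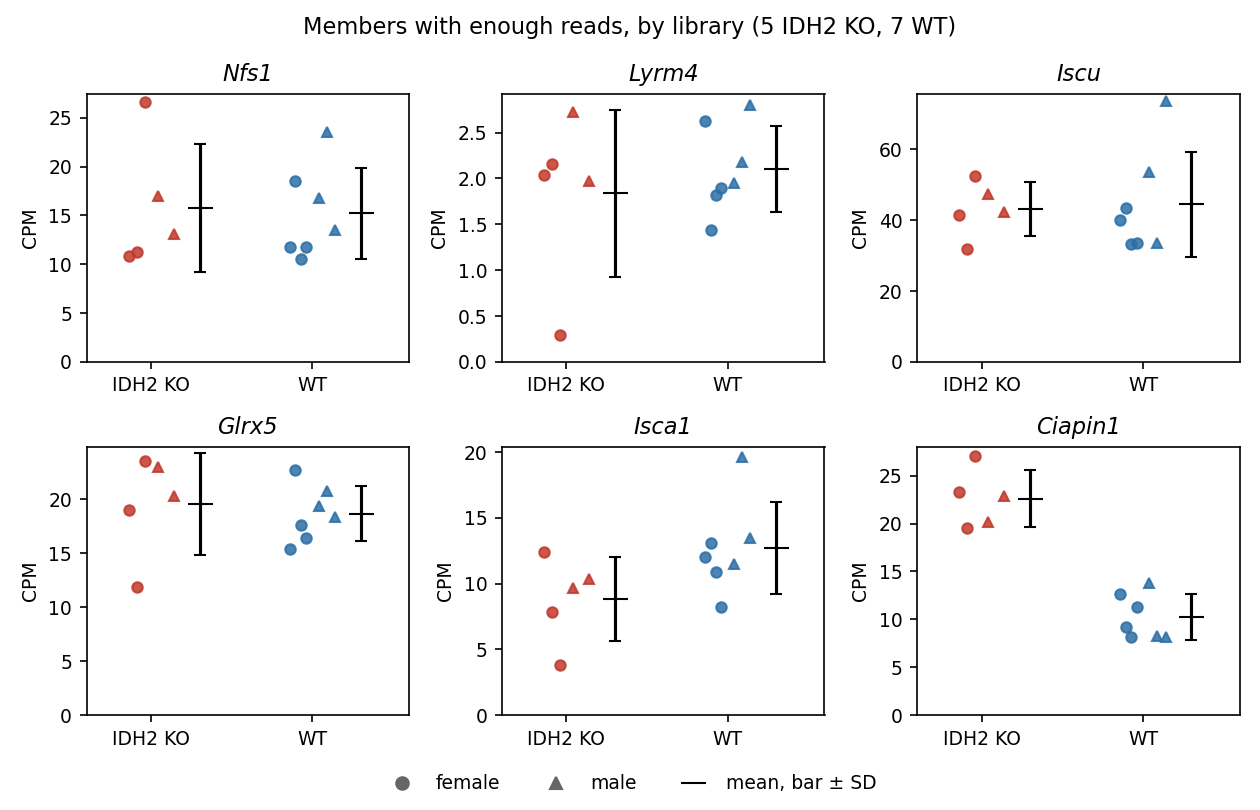
CPM of the 6 members with enough reads for a test, with 1 point per mouse (circles, females, triangles, males), IDH2 KO libraries left of WT libraries, and the mean ± SD beside each group. The 5 IDH2 KO libraries lie between 19.6 and 27.1 CPM for *Ciapin1*, above the 7 WT libraries at 8.17 to 13.8 CPM, while the groups overlap for the other 5 genes.

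Both sexes showed the higher level of *Ciapin1*. The log2 fold change was 1.15 (standard error 0.29) in females and 1.11 (standard error 0.34) in males, with no test of its own in either sex. The difference between the sexes in this change was −0.04 on the log2 scale (95% interval −1.01 to 0.93, adjusted p = 1.00 in edgeR), an interval wide enough to hold a difference of nearly the size of the change itself. The level averaged 14.7 ± 6.73 CPM (SD, n = 5) in males and 15.9 ± 7.39 CPM (SD, n = 7) in females, with a log2 fold change of −0.07 adjusted for genotype (standard error 0.21, adjusted p = 0.955 in edgeR). The change between genotypes was 1.08 to 1.24 on the log2 scale when each library was left out in turn, and it was 1.08 without IDH2 KO female 3, the library with the highest level.

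The difference in *Ciapin1* was also seen against its partners. Within the reads of the 6 members alone, *Ciapin1* took 16.8% to 23.1% in IDH2 KO libraries and 6.31% to 13.6% in WT libraries. The groups did not overlap on this scale either, which uses no library total and no scaling factor. This is a description too, since the same difference chose the gene. The mean share was 20.4% ± 2.31 (SD, n = 5) in IDH2 KO livers and 10.2% ± 2.87 (SD, n = 7) in WT livers.

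*Ciapin1* lies on chromosome 8 of GRCm38 from 94819804 to 94838358, on the minus strand (GENCODE M21). Its start faces that of *Coq9*, a gene of coenzyme Q synthesis on the plus strand, which runs from 94838321 to 94854895, so that the first exons overlap by 38 bases. The promoter windows of the pair were set on RefSeq starts, which differ from the GENCODE starts that give this overlap. Each window has 300 bases, with 250 before its RefSeq start and 50 after it, and the windows share 172 bases. They are shown because the paired starts of *Ciapin1* and of a gene that did not pass the test lie in them. Capitals mark matches to the GC box GGGCGG and to the EGR core GCGTGGG, on either strand, in sequence of RefSeq on GRCm38.p6, chr8:94838291-94838590 (minus strand) for *Ciapin1* and chr8:94838163-94838462 (plus strand) for *Coq9*.
Ciapin1: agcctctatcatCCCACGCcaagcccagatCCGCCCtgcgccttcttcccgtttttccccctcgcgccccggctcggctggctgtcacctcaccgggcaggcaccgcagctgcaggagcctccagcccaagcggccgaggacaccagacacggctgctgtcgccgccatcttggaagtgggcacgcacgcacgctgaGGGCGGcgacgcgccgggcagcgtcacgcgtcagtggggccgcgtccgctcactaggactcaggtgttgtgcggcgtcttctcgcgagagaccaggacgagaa
Coq9: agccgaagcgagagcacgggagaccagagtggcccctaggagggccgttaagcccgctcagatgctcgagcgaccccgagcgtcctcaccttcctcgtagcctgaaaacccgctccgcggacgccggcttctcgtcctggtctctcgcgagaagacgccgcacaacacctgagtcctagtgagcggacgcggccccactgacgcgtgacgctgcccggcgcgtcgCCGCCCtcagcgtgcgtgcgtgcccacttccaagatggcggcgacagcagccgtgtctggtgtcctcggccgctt
The *Ciapin1* window had 69.0% G and C and 34 CpG dinucleotides, against medians of 52.7% and 7 over 32851 promoter windows, of which 7.7% held at least as many CpG. It held 2 GC boxes, which 35.7% of all windows hold at least once, and 1 EGR core, which 5.0% hold. The GC box nearer to the start of *Ciapin1* was the same 6 bases as the 1 GC box of the *Coq9* window. The EGR core lay 238 bases before the RefSeq start of *Ciapin1*, outside the shared part. Neither window held the ETS core CCGGAAG (8.9% of all windows), the CCAAT box CCAAT (37.4%), the E-box CACGTG (7.2%), the AP-1 site TGANTCA (7.8%) or the NRF1 half-site TGCGCA (7.8%). These letter matches are descriptions of the windows and not binding sites.

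*Coq9*, read from the same stretch in the other direction, averaged 89.7 ± 23.2 CPM (SD, n = 5) in IDH2 KO livers and 76.1 ± 12.2 CPM (SD, n = 7) in WT livers. Its log2 fold change was 0.24 (95% interval −0.18 to 0.65, adjusted p = 0.846 in edgeR), and the ranges of the groups overlapped, 57.7 to 113.1 CPM in IDH2 KO and 62.5 to 96.6 CPM in WT. The reads of *Ciapin1* per read of *Coq9* were 0.179 to 0.469 in IDH2 KO libraries and 0.0972 to 0.199 in WT libraries. The ranges of this ratio overlapped, and the highest value was that of IDH2 KO female 3, in which *Coq9* was lowest. *Polr2c*, a subunit of RNA polymerase II that starts 19.1 kb beyond *Ciapin1*, averaged 24.2 ± 5.21 CPM (SD, n = 5) in IDH2 KO livers and 19.0 ± 2.43 CPM (SD, n = 7) in WT livers (log2 fold change 0.34, 95% interval −0.05 to 0.73, adjusted p = 0.773 in edgeR). *Ciapin1*, *Coq9* and *Polr2c* were the genes within 100 kb that held enough reads for a test.

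The other cytosolic member gave no value. *Ndor1* encodes the flavin reductase that passes electrons from NADPH to CIAPIN1, and it is annotated on chromosome 2 from 25244821 to 25256022 on the minus strand. It held 0 reads in each of the 12 libraries, which allows up to 3 reads in all, or 0.0310 RPM over the IDH2 KO libraries and 0.0207 RPM over the WT libraries (counting error only). RefSeq lists 28 transcripts for it, and 46.2% of the 50-base words of its main transcript also occur in other annotated genes. No level of *Ndor1* could therefore be set beside that of *Ciapin1*.

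The desulfurase and its scaffold did not differ detectably between genotypes. *Nfs1*, on chromosome 2 from 156123639 to 156144186, encodes the cysteine desulfurase that supplies the sulfur. It was at 10.8, 11.2 and 26.6 CPM in IDH2 KO females and 17.0 and 13.1 CPM in IDH2 KO males, against a lowest, median and highest of 10.5, 13.5 and 23.6 CPM in WT livers. The groups overlapped throughout, apart from IDH2 KO female 3 above every WT library. The log2 fold change was 0.07 (95% interval −0.52 to 0.67, adjusted p = 0.975 in edgeR), and −0.24 without that library. *Lyrm4*, on chromosome 13 from 35978395 to 36117526, encodes ISD11, the small protein that holds the desulfurase stable. It was at 2.04, 2.16 and 0.296 CPM in IDH2 KO females and 2.72 and 1.97 CPM in IDH2 KO males, against 1.44, 1.95 and 2.80 CPM as the lowest, median and highest of WT livers. IDH2 KO female 3, with 4 reads of *Lyrm4*, was the 1 library below the WT range. The log2 fold change was −0.19 (95% interval −1.02 to 0.64, adjusted p = 0.954 in edgeR) and 0.08 without that library.

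*Iscu*, on chromosome 5 from 113772748 to 113778288, encodes the scaffold on which the cluster forms. It was at 41.4, 31.9 and 52.5 CPM in IDH2 KO females and 47.5 and 42.3 CPM in IDH2 KO males, against 33.3, 40.04 and 73.6 CPM as the lowest, median and highest of WT livers. The groups overlapped, and the highest library of all was WT male 3. Its log2 fold change of −0.01 had a 95% interval of −0.48 to 0.46 (adjusted p = 0.994 in edgeR), so a change as large as that of *Ciapin1* lay outside the interval.

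The genes of the later steps, which pass the cluster on, did not pass the test either. *Glrx5*, on chromosome 12 from 105032688 to 105042906, encodes the monothiol glutaredoxin that takes the cluster from the scaffold. It was at 19.1, 11.9 and 23.6 CPM in IDH2 KO females and 23.0 and 20.3 CPM in IDH2 KO males, against 15.4, 18.4 and 22.7 CPM as the lowest, median and highest of WT livers. The IDH2 KO values lay on both sides of the WT range, with a log2 fold change of 0.07 (95% interval −0.37 to 0.51, adjusted p = 0.968 in edgeR). *Isca1*, on chromosome 13 from 59755409 to 59769810, encodes a carrier needed for the clusters with 4 iron atoms. It was at 12.4, 7.85 and 3.84 CPM in IDH2 KO females and 9.65 and 10.4 CPM in IDH2 KO males, against 8.25, 12.03 and 19.6 CPM as the lowest, median and highest of WT livers. The groups overlapped, with 2 IDH2 KO libraries below every WT library. The log2 fold change was −0.50 (95% interval −1.09 to 0.08, adjusted p = 0.773 in edgeR), and −0.32 without IDH2 KO female 3.

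Of the 5 partners tested, 0 were called in either direction by edgeR, where 0.171% of all genes were called higher and 0.210% lower. No partner had an unadjusted p under 0.05, and DESeq2 called 0 of the 5. Among the 6 members tested, *Ciapin1* was the only one whose groups did not overlap. Nothing is read from this, since the same difference chose *Ciapin1*. Of all genes tested, 0.223% had every IDH2 KO library above every WT library and 0.446% every one below. Leaving out IDH2 KO female 3 turned the direction of *Nfs1*, of *Lyrm4* and of *Glrx5*, which was then at −0.03.

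**Figure D2:**
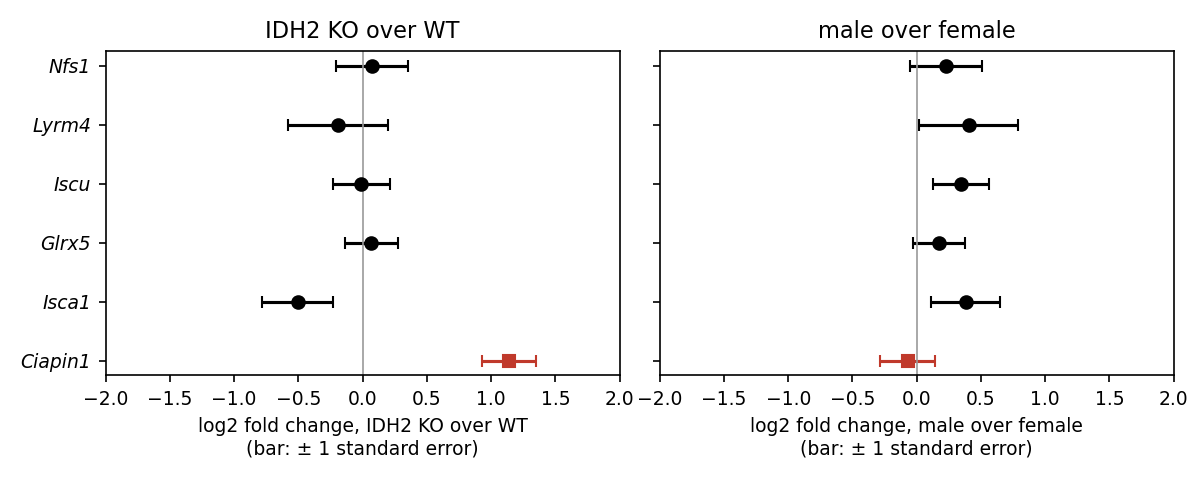
Log2 fold changes of the 6 members tested, IDH2 KO over WT (left) and male over female (right), each with a bar of 1 standard error to each side. In the left panel *Ciapin1* is at 1.14 and the 5 partners lie between −0.50 and 0.07, and in the right panel all 6 lie between −0.07 and 0.40.

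Both remaining mitochondrial members were nearly without reads. *Isca2*, the partner of ISCA1, held 3 reads over the IDH2 KO libraries and 8 over the WT libraries, a ratio of RPM (unscaled reads per library total) of 0.561 (exact 95% interval 0.0958 to 2.34, counting error only). *Bola3*, which helps to deliver clusters to lipoic acid synthase, held 3 reads over the IDH2 KO libraries and 22 over the WT libraries, a ratio of 0.204 (0.0391 to 0.679). Of the 22 WT reads, 12 came from WT female 3, so the interval, which covers counting error only, leaves out the spread between mice. Reads were found in 2 of 5 IDH2 KO libraries and 5 of 7 WT libraries for *Bola3*, and in 1 and 3 for *Isca2*. Neither gene was tested.

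Among iron-sulfur genes, those with more annotated transcripts less often held enough reads for a test. *Glrx5*, *Isca1* and *Lyrm4* have 1 RefSeq transcript each, *Ciapin1* and *Nfs1* have 3, *Iscu* and *Isca2* have 4, *Bola3* has 5 and *Ndor1* has 28. Over 76 genes of iron-sulfur cluster assembly and use, all 20 with 1 RefSeq transcript held enough reads for a test. Of the 39 with 2 to 4 transcripts 26 did so and 6 held 0 reads, and of the 17 with 5 or more 3 did so and 5 held 0 reads. The same split was not made over the other genes of the table, so it is not shown to be particular to iron-sulfur genes. How reads that match several transcripts or genes were counted is not given in the sources used here, and the part of it in the low counts of *Isca2*, *Bola3* and *Ndor1* was not tested.

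**Figure D3:**
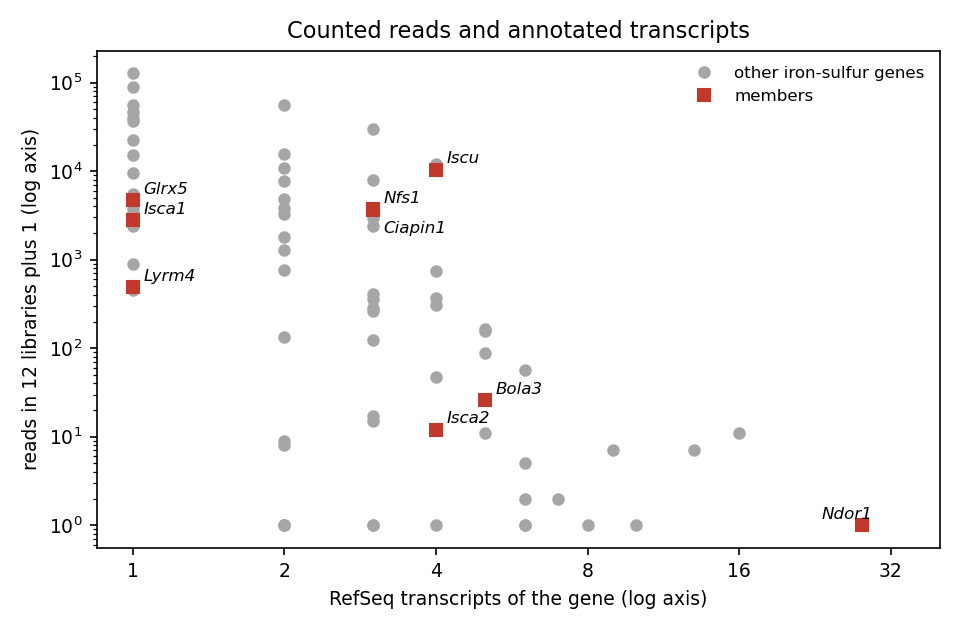
Reads summed over the 12 libraries, plus 1, against the number of RefSeq transcripts of each of 76 iron-sulfur genes, both on log axes, with the 9 members as red squares. The members with 1 transcript held 489 to 4673 reads, *Nfs1* and *Ciapin1* with 3 held 3747 and 3643, and *Iscu* and *Isca2* with 4 held 10403 and 11. *Bola3* with 5 held 25, and *Ndor1* with 28 held 0.

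Set per length of the main transcript of GENCODE, *Iscu* was by far the most abundant member, at 45.9 ± 12.4 CPM per kb (SD, n = 12). *Nfs1* at 7.53 ± 2.56, *Glrx5* at 6.52 ± 1.17 and *Isca1* at 5.70 ± 1.95 CPM per kb followed, with ranges that overlapped. *Ciapin1* was next at 3.53 ± 1.57 and *Lyrm4* last of the 6 at 0.955 ± 0.319 CPM per kb. The level of *Ciapin1* was 5.18 ± 0.682 CPM per kb in IDH2 KO livers (SD, n = 5), above the 4.54 ± 1.65 of *Isca1*, and 2.35 ± 0.544 CPM per kb in WT livers (SD, n = 7), below the 6.53 ± 1.80 of *Isca1*. Its place above *Isca1* rested on IDH2 KO female 3, without which *Ciapin1* was at 4.92 ± 0.426 and *Isca1* at 5.18 ± 0.961 CPM per kb (SD, n = 4). These levels are uncertain for genes that share sequence. Of the 50-base words of the main transcript, 71.2% in *Isca1*, 23.5% in *Iscu* and 15.4% in *Nfs1* occur in another annotated gene, against 3.24% in *Lyrm4*, 0.255% in *Ciapin1* and 0% in *Glrx5*. Exons of *Isca1* overlap those of *Gm49354* on the same strand and *Etohd2* on the other, those of *Nfs1* overlap *Gm28036* and *Romo1*, those of *Lyrm4* overlap *Fars2*, and *Iscu* shares words with *Gm16437*. The library kit is not described as keeping strand, so reads of a gene and of its antisense partner cannot be told apart.

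The members did not move as 1 group from library to library. Over the 12 libraries, on log2(CPM + 0.5), *Nfs1* and *Glrx5* had a Pearson r of 0.70, and of 0.65 without IDH2 KO female 3. *Lyrm4* and *Isca1* had an r of 0.73 over 12 libraries and 0.04 without IDH2 KO female 3, in which both were lowest. *Ciapin1* had r between −0.64 (*Isca1*) and 0.08 (*Glrx5*) with the 5 partners. The difference between genotypes that chose *Ciapin1* enters these values. With the means of the 4 groups of genotype and sex taken out, its r ran from −0.43 (*Isca1*) to 0.27 (*Iscu*). These values describe libraries that share depth and scaling, and carry no test.

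Most like *Ciapin1* were genes outside the pathway. With the means of the 4 groups of genotype and sex taken out, the highest Pearson r over 12 libraries among 3368 genes with a mean of at least 5 CPM were those of *Inpp5b* (0.92), a phosphoinositide phosphatase, *Gm8883* (0.85), the hemoglobin genes *Hbb-bt* (0.80) and *Hba-a1* (0.79), and *Ebna1bp2* (0.79), a gene of ribosome assembly. The values are descriptions, with 8 degrees of freedom left among the libraries.

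Hemoglobin transcripts, 2 of which were among the genes most like *Ciapin1*, were therefore set beside it. The summed level of *Hbb-bs*, *Hbb-bt*, *Hba-a1* and *Hba-a2* was 33.3 to 299.8 CPM in IDH2 KO livers and 4.35 to 139.4 CPM in WT livers. Of the 8 erythroid markers listed, 7 were in the table and 5 were tested. None of the 5 was called by edgeR or DESeq2. At an unadjusted p under 0.05 in edgeR, 4 had a higher and 0 a lower level in IDH2 KO livers, against 3.48% and 3.24% of all genes. Without IDH2 KO female 3, 1 of the 5 had a higher level at that threshold, against 4.58% of all genes. The value for *Alas2*, the heme synthesis enzyme of red cells, was −0.92 on the log2 scale (adjusted p = 0.756 in edgeR). *Alas2* also differed between the sexes, with a log2 fold change of 4.66 in males over females (adjusted p = 1.53e-05 in edgeR). The red cell membrane marker *Slc4a1* held 6 reads in all IDH2 KO libraries together and 6 in all WT libraries. In the order of the *Ciapin1* values given above, the summed hemoglobin level was 155.4, 33.3 and 214.8 CPM in IDH2 KO females and 299.8 and 211.6 CPM in IDH2 KO males, and 35.1, 19.996, 19.7 and 139.4 CPM in WT females and 48.9, 4.35 and 17.1 CPM in WT males. The IDH2 KO library with the lowest hemoglobin level was also the one with the lowest *Ciapin1*. IDH2 KO male 1, with the highest hemoglobin level, had 20.2 CPM of *Ciapin1*, below the IDH2 KO median of 22.8 CPM. On log2 scales, *Ciapin1* and the hemoglobin sum had a Pearson r of 0.69 over the 7 WT libraries. Over the 5 IDH2 KO libraries r was 0.46, and both values are descriptions. Among the lymphocyte markers *Igkc* had a log2 fold change of 1.70 at an adjusted p of 0.0512 in edgeR, which misses the threshold. DESeq2 called 1 of the 5 lymphocyte markers tested higher, and of all 7618 genes it called 30 higher and 33 lower. Without IDH2 KO female 3 edgeR called *Igkc* (log2 fold change 1.48, adjusted p = 0.0353), 1 of 33 genes called among 8107. All 5 then had positive values, against a median of 0.01 over all genes. *Hbb-bs*, *Hba-a1*, *Hba-a2*, *Igkc* and *Trbc2* are among the genes the study listed as higher on these samples. Their direction here is therefore not independent evidence. The part of other cell types in the level of *Ciapin1* was not tested beyond these values.

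**Figure D4:**
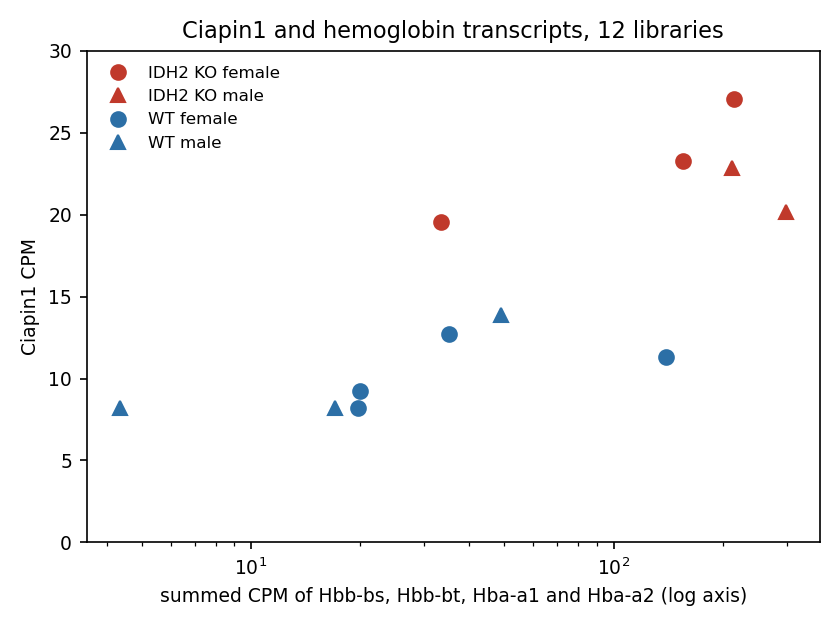
*Ciapin1* CPM against the summed CPM of 4 hemoglobin genes (log axis) in each of the 12 libraries (red, IDH2 KO, blue, WT, circles, females, triangles, males). Of the 5 IDH2 KO libraries, 4 lie at a hemoglobin level above that of every WT library (139.4 CPM at most), and IDH2 KO female 2 at 33.3 CPM lies within the WT range.

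The rest of the assembly machinery was described by 2 lists. Among 16 other mitochondrial assembly genes 11 were tested, of which 0 were called, and their median log2 fold change was −0.18 against −0.00 over all 7618 genes. At an unadjusted p under 0.05, 1 was lower and 0 were higher, against 3.24% and 3.48% of all genes, and DESeq2 called 0. Without IDH2 KO female 3, 2 were lower and 0 higher, against 5.23% and 4.58%. The gene below that threshold with all libraries was *Fdx1l*, the ferredoxin (FDX2) that gives electrons to the scaffold, with 26 reads in IDH2 KO libraries and 131 in WT libraries. It averaged 0.278 ± 0.122 CPM (SD, n = 5) in IDH2 KO livers and 0.882 ± 0.477 CPM (SD, n = 7) in WT livers. The log2 fold change was −1.60 (standard error 0.52), with an adjusted p of 0.473 in edgeR. Every IDH2 KO library lay below every WT library, as in 0.446% of all genes. No IDH2 KO library was above 0.398 CPM, so *Fdx1l* passed the filter on its WT libraries alone. That favours a lower IDH2 KO value without overlap, and nothing is read from it. *Fdx1l* is among the genes the study listed as changed on these samples, so its direction is not independent evidence. *Fdx1*, the ferredoxin of steroid synthesis, had a log2 fold change of −0.69, and −0.92 (unadjusted p = 0.0111, adjusted p = 0.358 in edgeR) without IDH2 KO female 3, and *Nubpl*, an assembly factor of complex I, −0.53. *Fdxr*, the reductase of both ferredoxins, had 0.26, and −0.39 without IDH2 KO female 3.

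In the cytosolic list, 7 of 11 genes were tested, 0 were called, 0 had an unadjusted p under 0.05, and the median was −0.10. With IDH2 KO female 3 left out, 1 was lower at that threshold, *Bola2*, and 0 were higher, against 5.23% and 4.58% of all genes. The genes of this list act beside or after CIAPIN1. *Nubp1*, the scaffold of the cytosolic machinery, had a log2 fold change of 0.19 and *Bola2* 0.18, which was −0.47 without IDH2 KO female 3, while *Yae1d1*, an adaptor, had −0.33 and *Glrx3*, a carrier of clusters, −0.19, and −0.01 and −0.48 without it. *Ciao1*, chosen after its values were seen, like *Cdk5rap1* and *Aco1* further on, is part of the complex that hands clusters to their target proteins. It averaged 38.1 ± 3.13 CPM (SD, n = 5) in IDH2 KO livers and 40.9 ± 5.18 CPM (SD, n = 7) in WT livers, with a 95% interval of the log2 fold change from −0.47 to 0.26. The scaffold *Nubp2* and *Narfl*, the adaptor CIAO3, held 0 reads in the 12 libraries.

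Among 15 mitochondrial proteins that receive clusters, 11 were tested, 0 were called and 0 had an unadjusted p under 0.05, with a median of −0.08. Without IDH2 KO female 3, 12 were tested and 0 called. At that threshold 3 were lower and 0 higher, against 5.23% and 4.58% of all genes. These were *Cdk5rap1* (−1.71, adjusted p = 0.258 in edgeR), *Ndufs7* (−1.42, adjusted p = 0.321) and *Sdhb* (−1.55, adjusted p = 0.495). The value for *Cdk5rap1* rested on leaving out that library, and was −0.36 (standard error 0.70) with all 12. *Sdhb* was at 0.402 CPM at most in IDH2 KO libraries and up to 1.69 CPM in WT libraries. *Cdk5rap1* averaged 0.393 CPM in IDH2 KO livers without IDH2 KO female 3 (n = 4) and 1.30 CPM in WT livers. Both passed the filter mainly on WT libraries, which favours a lower value, so nothing is read from the count of 3. *Ndufs7*, a complex I subunit, had a log2 fold change of −0.91 with all libraries and *Lias*, lipoic acid synthase, −0.42 (−0.13 without that library), while *Ndufv1* had 0.04 (−0.12 without it) and *Fech*, which puts iron into heme, 0.00. *Mocs1*, a gene of molybdenum cofactor synthesis on the study's list of changed genes, had 1.35 (standard error 0.70, adjusted p = 0.760 in edgeR) from 53 reads in IDH2 KO libraries and 35 in WT libraries. It averaged 0.576 CPM in IDH2 KO livers and 0.236 CPM in WT livers. *Mocs1* passed the filter mainly on IDH2 KO libraries, which favours a higher value. *Sdhb*, the iron-sulfur subunit of succinate dehydrogenase and also on that list, held 22 reads in IDH2 KO libraries and 110 in WT libraries and was too low to be tested with all libraries.

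Cytosolic and nuclear proteins that receive clusters made up 25 genes, of which 14 were tested, 0 were called and 0 had an unadjusted p under 0.05. Of the 14, 12 had a negative and 2 a positive log2 fold change, with a median of −0.32, and of all 7618 genes 3845 had a negative value. Without IDH2 KO female 3 the median was −0.19, with 11 negative values of 14. At an unadjusted p under 0.05, 1 gene of the list was then higher and 0 lower, against 4.58% and 5.23% of all genes. Of the genes that averaged 1 CPM or more, the lowest were *Rsad2* (−0.80), the antiviral enzyme viperin, and *Xdh* (−0.54), xanthine dehydrogenase, and the highest were *Nthl1* (0.47) and *Ercc2* (0.26), both of DNA repair. These values were −0.51 for *Rsad2*, 0.10 for *Nthl1* and 0.41 for *Ercc2* without IDH2 KO female 3. *Xdh* was at 1.63 CPM in IDH2 KO female 3 and at 25.8 to 59.7 CPM in WT livers, and without that library its log2 fold change was −0.25. *Aco1*, the cytosolic aconitase that senses iron, averaged 159.0 ± 74.8 CPM (SD, n = 5) in IDH2 KO livers and 206.5 ± 18.3 CPM (SD, n = 7) in WT livers (log2 fold change −0.39, adjusted p = 0.813 in edgeR), and without IDH2 KO female 3 its log2 fold change was −0.17.

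**Figure D5:**
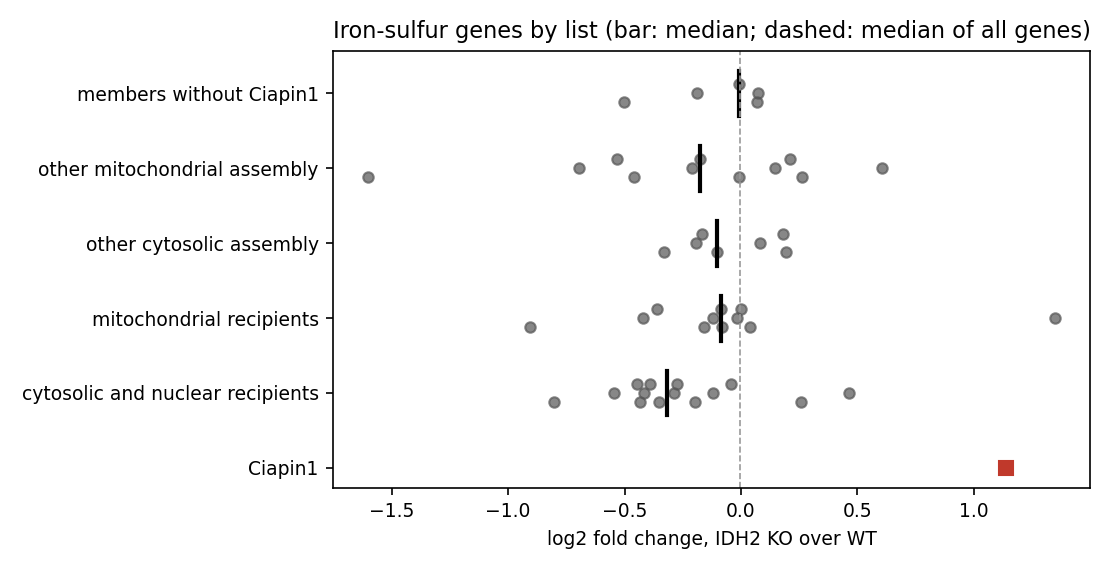
Log2 fold changes, IDH2 KO over WT, of the iron-sulfur genes tested in each list (points), with the median of the list (black bar) and of all genes tested (dashed line), and *Ciapin1* as a red square. The list medians lie between −0.32 and −0.01, and *Ciapin1* at 1.14 is exceeded by 1 of the 49 iron-sulfur genes tested, *Mocs1* at 1.35. Nothing is read from the place of *Ciapin1*, since this same difference chose the gene.

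Between the sexes, 0 of the 6 members were called by edgeR, where 0.827% of all genes were higher in males and 1.16% lower in males. None of the 6 had an unadjusted p under 0.05, and DESeq2 called 0 of them. In 0 of the 6 were all males above or all below all females, against 1.23% and 1.50% of all genes. *Iscu* averaged 50.1 ± 15.01 CPM (SD, n = 5) in males and 39.5 ± 7.29 CPM (SD, n = 7) in females, a log2 fold change of 0.34 (95% interval −0.13 to 0.81, adjusted p = 0.603 in edgeR). *Isca1* averaged 12.9 ± 4.01 CPM (SD, n = 5) in males and 9.76 ± 3.29 CPM (SD, n = 7) in females (log2 fold change 0.38, adjusted p = 0.647 in edgeR). The other log2 fold changes of males over females were 0.40 for *Lyrm4*, 0.23 for *Nfs1* and 0.17 for *Glrx5*, with adjusted p between 0.772 and 0.840. Among the 49 iron-sulfur genes tested, 1 was called, the aldehyde oxidase *Aox1*, which was higher in males (log2 fold change 0.80, standard error 0.18, adjusted p = 0.0343 in edgeR). Scaling changes this comparison. Without scaling factors the median over all genes was 0.28 and the split of calls was 72 higher and 46 lower in males, against 63 and 88 with TMM, and *Ciapin1* had 0.21 in place of −0.07.

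For the difference between the sexes in the change between genotypes, 0 of 8644 genes were called, or 0% in either direction, with 148 higher and 126 lower at an unadjusted p under 0.05 in edgeR and 10 called by DESeq2. None of the 6 members had an unadjusted p under 0.05. The log2 differences of the partners ran from −0.50 for *Nfs1* (95% interval −1.70 to 0.69) to 0.39 for *Lyrm4* (−1.37 to 2.15), and both intervals held log2 differences as large as the change of *Ciapin1* itself, in one direction for *Nfs1* and in both for *Lyrm4*.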

How the data were processed

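Liver RNA of 12 mice was made into libraries with a TruSeq RNA kit and read as single ends of 50 bases. What the authors deposited were raw gene counts, as whole numbers with no normalization, and a filtered table of 8730 of the rows with equal values. The submitters' processing notes name FastQC and GRCm38.p5. Which aligner and counter were used, and how reads with several matches were handled, is not given in the sources used here. Sequencing depth limits precision for genes with few reads, and intervals on summed reads cover counting error only.

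The raw counts were tested with the quasi-likelihood test of edgeR 4.0.16 (robust, TMM factors) in R 4.3.3, with genotype and sex as terms. The filter was filterByExpr (minimum count 10, total 15), and a gene was called at a Benjamini-Hochberg adjusted p under 0.05. The 4 groups of genotype and sex gave the interaction. The named genes were the 9 members, *Idh2*, the genes within 100 kb of *Ciapin1*, the 5 most like it, and in each list those called, those in the study's list of changed genes, and the 2 highest and 2 lowest with at least 1 CPM. Some genes of these lists are not reported here. The members and lists were chosen with earlier results of these data known. Alternatives were other scaling factors, no filter, the authors' filtered genes, DESeq2 1.42.0, limma 3.58.1, fits without the sex or genotype term, a replicate block, and leaving out each library. The test was checked on simulated data. Promoter windows and transcript numbers came from RefSeq tables (GRCm38.p6), gene positions from GENCODE M21. Samples with the same number did not deviate together, so numbers were not taken as pairs.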

Additional observations from a re-analysis of the deposited data

Results flagged for a closer look

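*Nfs1* in WT female 2 stood far from the other WT females. Its level was 18.6 CPM, from 528 reads, against 10.5 to 11.8 CPM in the other 3. The groups examined were the IDH2 KO (n = 5), WT (n = 7) and WT female (n = 4) libraries for each of the 6 members tested. Of these 18 groups, which are not separate since WT females are also in the WT group, 1 had a library that far from the rest. Chance alone marks about 1 group in 20, so 1 in 18 is about what chance gives.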

How the results depend on the processing

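*Ciapin1* had a higher level in IDH2 KO livers in all 22 alternatives, at log2 fold changes of 1.08 to 1.24. Of the 5 partners 0 were called in these 22, and of the 6 members 0 were called in the 21 alternatives for sex and the 20 for the interaction. The lowest adjusted p of a partner in edgeR, DESeq2 or limma was 0.590, for *Isca1* without IDH2 KO female 1.

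Counts over all genes moved more. Between genotypes 29 genes were called, 205 with no filter on low counts, 63 by DESeq2, 10 with a replicate block within sex, and 19 (without IDH2 KO female 1) to 33 (without IDH2 KO female 3) when each library was left out. Between sexes 151 were called, 457 with no filter, 336 by DESeq2, and 80 (without IDH2 KO male 2) to 328 (without IDH2 KO female 3) when each was left out. For the interaction 0 were called, 1 without scaling factors, 48 with no filter, 10 by DESeq2, 2 by limma on log2(RPM + 1), and 0 to 2 when each library was left out, with 2 without IDH2 KO female 3. The causes were not tested. The replicate block changed no call among the members, and same-numbered libraries had correlations of −0.18 to 0.08 in their deviations from the group means.

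With 3 female and 2 male IDH2 KO mice, the intervals on single genes were wide. *Ndor1*, *Isca2* and *Bola3* had too few reads for any comparison between mice, and nothing here separates transcript levels from how shared reads were counted.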
